A study of Mus musculus with 23 samples.

Results

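Alox5ap, Alox15 and Hpgd, 3 genes of eicosanoid synthesis and breakdown, were taken by name from the 754 genes of a NanoString mouse myeloid panel and described in all 23 lungs of the series by genotype, exposure and extraction day. The panel counts colour-coded probes hybridised to total RNA without amplification, and the values here are normalized counts with a floor of 20 below which no level was given. Mice received organic dust extract or the saline vehicle (PBS), instilled 14 times, and the left lobe was kept in RNAlater after the whole lung had been lavaged. Wild-type (WT) mice were compared with Fat-1 mice, which carry a desaturase from Caenorhabditis elegans that turns omega-6 into omega-3 fatty acids. The extract code gave 7 WT dust, 5 WT saline, 6 Fat-1 dust and 5 Fat-1 saline lungs, of both sexes, each from its own mouse. Strain, age and the transgene's promoter are not stated by the sources used here. The transgene has no probe on the panel, so genotype could not be checked against RNA. For 4 lungs the labels disagree, and 3 of these were coded Fat-1 but described as WT elsewhere. The other was coded WT saline but has a title that says dust, so its exposure is in doubt too. Sex is also in doubt for WT male saline lung 2 and Fat-1 male saline lung 2, both of day 2. These were coded male but called female elsewhere in the labels.

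Eicosanoids are signalling lipids made from membrane fatty acids, mostly from the omega-6 arachidonic acid. Alox5ap encodes FLAP, the protein that hands arachidonic acid to 5-lipoxygenase and without which cells make little leukotriene; Alox15 encodes the 12/15-lipoxygenase of mouse macrophages and eosinophils, which oxidises omega-6 and omega-3 fatty acids alike and feeds lipoxins and resolvins. Hpgd encodes 15-hydroxyprostaglandin dehydrogenase, which inactivates prostaglandins, lipoxins and some resolvins and is abundant in lung, the organ that clears prostaglandins from the circulation.

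Of the 754 genes, 711 exceeded the floor in 1 lung or more and were tested, all 3 eicosanoid genes among them. Alox5ap and Hpgd were above the floor in every lung and Alox15 in 14 of 23. Recovered counts, read from the steps between values, totalled 110453 to 812429 per lung. For Alox5ap they ran from 103 to 1319 counts and for Hpgd from 917 to 19775. Scans of 2 lungs carried a message of too concentrated RNA, and their binding densities of 3.05 and 3.12 stood above the 0.28 to 1.32 of the other lungs. These were Fat-1 male dust lung 1 and WT male saline lung 1, both of day 2. On the deposited scale the median of all tested genes was 0.26 higher in dust lungs on the log2 scale, so a difference of that size is what a typical gene of the panel showed.

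Alox5ap rose with dust. In saline lungs of WT mice the normalized counts were 334 and 359 on extraction day 1 and 360.0, 382 and 508 on day 2. Saline lungs of Fat-1 mice had 455 and 491 on day 1 and 331, 398 and 518 on day 2. These 10 values stayed between 331 and 518 and overlapped between the genotypes and between the days, although on day 1 both Fat-1 lungs were above both WT lungs.

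In WT dust lungs Alox5ap was at 1085, 1149, 1219 and 1219 on day 1 and at 398, 689 and 885 on day 2. In Fat-1 dust lungs it was at 594, 694, 895 and 1187 on day 1 and at 737 and 902 on day 2. Thus 12 of 13 dust lungs lay above the highest saline lung, where 19.4% of the 711 tested genes had at least 11. The exception was WT female dust lung 2 of day 2, whose 398 normalized counts fell within the saline range. The mean was 896 ± 265 (SD, n = 13) in dust and 414 ± 73.0 (SD, n = 10) in saline.

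In the limma fit over 8 groups of genotype, sex and exposure, Alox5ap was 1.08 higher in dust on the log2 scale (SE 0.18, adjusted p = 1.28e-04). In this comparison 53.3% of tested genes passed the threshold of an adjusted p under 0.05, 43.3% of them higher and 9.99% lower as shares of all tested genes. A higher call as such was thus common on this panel. The rise remained called when arrays were scaled to the housekeeping genes (0.95) or centred on the median of genes above the floor in every lung (0.69), and without the 4 lungs whose labels disagree (1.15).

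**Figure D1:**
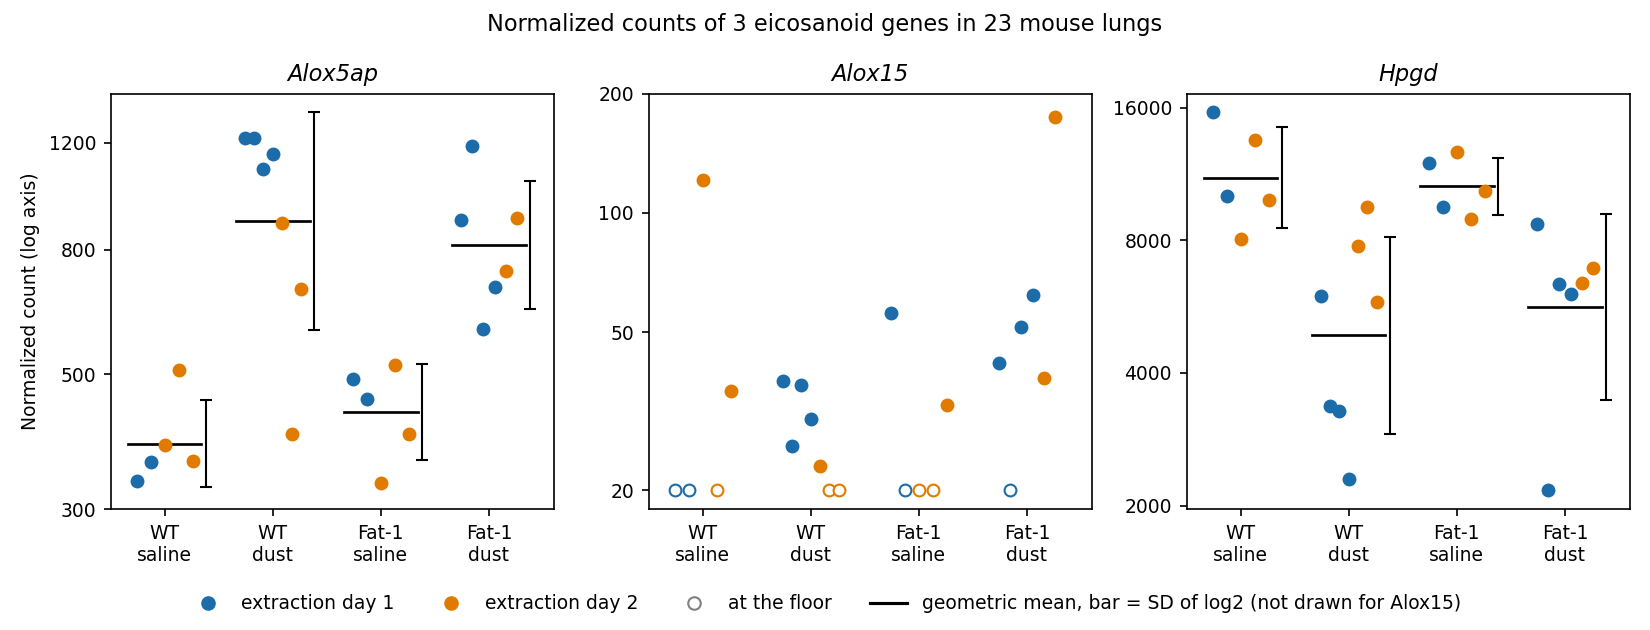
Normalized counts (log axis) of Alox5ap, Alox15 and Hpgd in each lung, by genotype and exposure; each point is 1 lung, coloured by extraction day, open points are at the floor of 20, lines are geometric means and bars the SD of log2 values. Alox5ap sits between 331 and 518 in saline and above 518 in 12 of 13 dust lungs, Hpgd is below 8061 in 11 of 13 dust lungs, and for Alox15 a single lung in each of 2 groups stands above 100.

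Alox15 was near or below the limit of measurement in most lungs. It was at the floor in 6 of 10 saline lungs and 3 of 13 dust lungs. The floor had been set on counts before scaling, and in lungs with a scale factor under 1 it also held for the scaled values. A lung at 20 could thus hold any value below its own lowest measurable value. That value reached 84.3 normalized counts in Fat-1 male saline lung 1 of day 1. In 12 lungs Alox15 was measured at 23 to 62.0 normalized counts, from 21 to 43 recovered counts. In all 14 lungs with a measured value the recovered count was above the highest negative control of the same lung, and no lung had a negative control above 28 counts.

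A pair of lungs stood well above these. Fat-1 male dust lung 1 of day 2 had 175 normalized counts of Alox15 (177 recovered counts), and WT female saline lung 1 of day 2 had 121 (136 recovered counts). The first has a too concentrated scan, and the second has the highest positive control of the series (46929 counts, with no other lung above 17836) and the highest mean of negative controls (19.8). The other WT saline lungs were at the floor in 3 cases and at 35.7 in 1, and the other Fat-1 saline lungs at the floor in 3 cases and at 32.8 and 55.9.

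In WT dust lungs Alox15 was at 25.9, 30.3, 36.9 and 37.6 on day 1, and on day 2 it was at 23 in 1 lung and at the floor in the other two. In Fat-1 dust lungs it was at 41.8, 51.7 and 62.0 on day 1 with 1 lung at the floor, and at 38.4 and 175 on day 2. Thus 5 of 6 Fat-1 dust lungs were above all 7 WT dust lungs, whose lungs at the floor had upper bounds of 36.5 and 37.3, and 0.985% of tested genes had at least 5 such lungs. The lowest of the 5 exceeded the highest WT lung by less than 1 normalized count, and 1 of the 5, at 51.7, is a lung described as WT elsewhere in the labels. The remaining Fat-1 dust lung, at the floor, had an upper bound of 47.3. Split by sex, the 3 Fat-1 dust males were at 51.7, 62.0 and 175, and the 3 females at 38.4, 41.8 and the floor. The dust and saline groups overlapped, with 1 of 13 dust lungs above the highest saline lung.

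With floor values entered as 20, limma gave Alox15 a log2 difference of 0.25 between dust and saline (SE 0.30, adjusted p = 0.521). Its sign turned to -0.14 (adjusted p = 0.665) after median centring, and leaving out single lungs moved it between -0.07 and 0.56. With a common floor of 84.3 in all lungs, which only the values of 121 and 175 exceed, it was 0.02 (limma adjusted p = 0.872). No direction with dust can be given for Alox15 from these lungs.

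**Figure D2:**
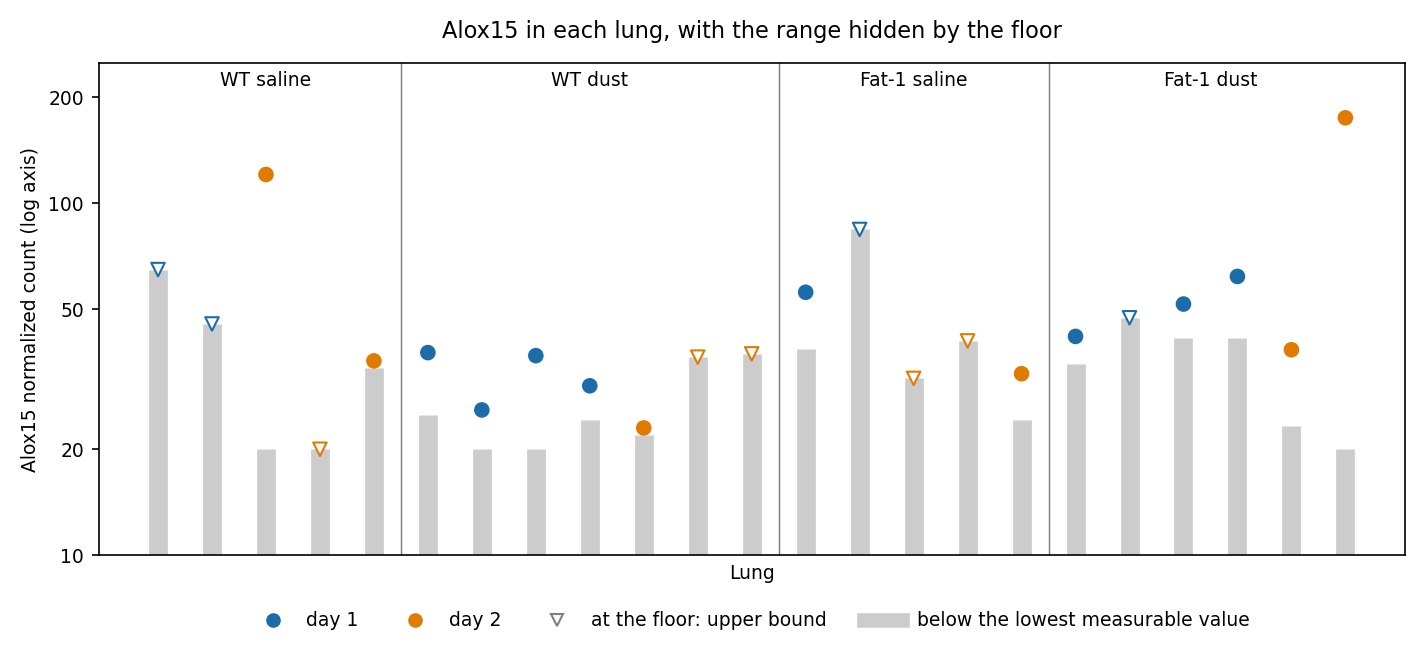
Alox15 normalized count (log axis) in each of the 23 lungs, by genotype and exposure; filled points are measured values coloured by extraction day, open triangles are lungs at the floor drawn at their upper bound, and grey bars cover the range that the floor and the scale factor hid. Measured values other than 121 and 175 lie at 23 to 62.0, inside the range of upper bounds of the lungs at the floor, 20 to 84.3.

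Hpgd fell with dust. WT saline lungs had 10059 and 15612 normalized counts on day 1 and 8061, 9865 and 13489.6 on day 2. Fat-1 saline lungs had 9501 and 12006 on day 1 and 8945, 10331 and 12708 on day 2. The saline lungs of both genotypes and both days overlapped, and the highest and lowest of them were both WT females.

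In WT dust lungs Hpgd was at 2303, 3280.2, 3369.9 and 5989 on day 1 and at 5784, 7781 and 9499 on day 2. In Fat-1 dust lungs it was at 2168, 6027, 6367 and 8711 on day 1 and at 6409 and 6925 on day 2. Hpgd was below every saline value in 11 of 13 dust lungs, against 1.69% of tested genes with at least that many dust lungs below. The exceptions were WT female dust lung 2 of day 2, which was also the exception for Alox5ap, and Fat-1 female dust lung 1 of day 1. The lowest dust lungs, at 2168 to 3370 normalized counts, were all of day 1.

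The mean of Hpgd was 5739 ± 2341 (SD, n = 13) in dust and 11058 ± 2336 (SD, n = 10) in saline. The log2 difference was -1.10 (limma, SE 0.23, adjusted p = 8.53e-04), where 9.99% of tested genes were called lower. With housekeeping scaling it was -1.24 and with median centring -1.49, and without the 4 lungs whose labels disagree it was -1.11, all called. In whole tissue, fewer cells that carry a transcript and less transcript per cell cannot be told apart, for Hpgd as for the other genes here.

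Within each lung the ratio of Hpgd to Alox5ap is free of the scale factor, which cancels, although its size has no meaning of its own because probes differ in efficiency. It was 46.8 and 28.0 in the WT saline lungs of day 1 and 21.1, 26.5 and 27.4 in those of day 2, and 17.3 to 38.4 in the Fat-1 saline lungs. In WT dust lungs it was 2.0 to 4.91 on day 1 and 8.4, 8.79 and 23.8 on day 2, and in Fat-1 dust lungs 1.83 to 10.7. All dust lungs except WT female dust lung 2 of day 2 had a ratio below the lowest saline lung. A lower ratio can come from either gene, and in Fat-1 female dust lung 1 of day 1, with a ratio of 9.74, Alox5ap was above the saline range while Hpgd was within it.

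Among the 13 dust lungs, those with more Alox5ap had less Hpgd. Over log2 values Pearson's r was -0.67 (permutation p = 0.0114, Benjamini-Hochberg adjusted p = 0.0456 over 4 relations) and Spearman's rho was -0.59 (permutation p = 0.0358, adjusted p = 0.143), so the rank correlation failed the correction. Without the 2 lungs farthest from the median of Alox5ap, r was -0.63. Within the 8 dust lungs of day 1 it was -0.61 (exact permutation p = 0.114, adjusted p = 0.228). Among the 10 saline lungs r was -0.18 (permutation p = 0.613, adjusted p = 0.817) and rho -0.30 (permutation p = 0.408), and among the 6 saline lungs of day 2 r was 0.01 (exact permutation p = 0.989). The 5 dust lungs of day 2 were too few for a value of their own.

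**Figure D3:**
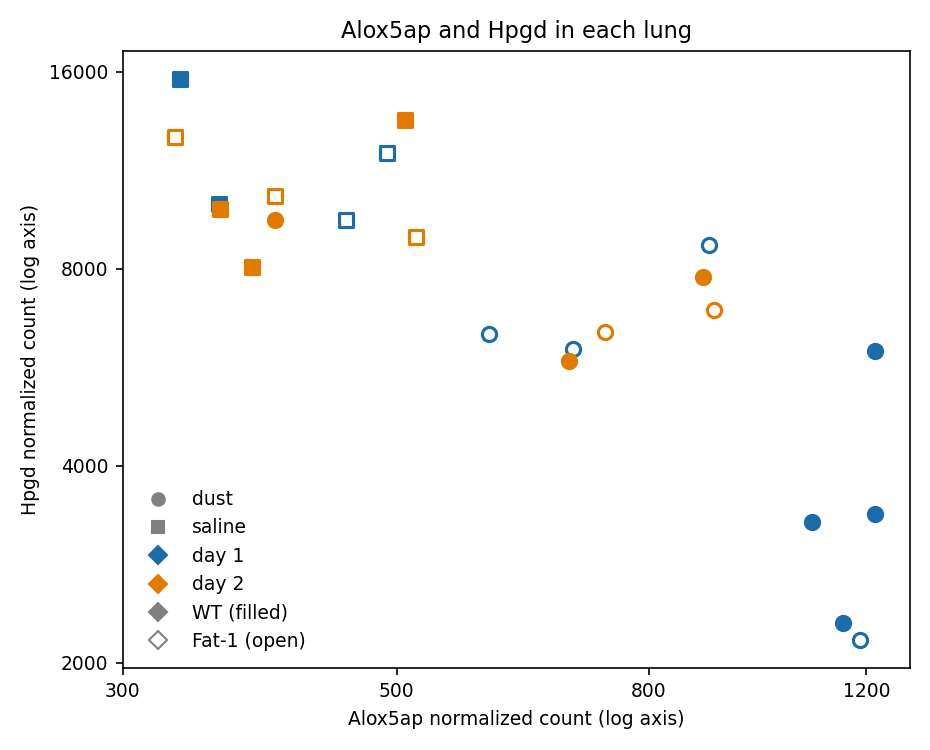
Hpgd against Alox5ap, both as normalized counts on log axes, with 1 point per lung; circles are dust and squares saline, colour gives the extraction day, and filled points are WT and open points Fat-1. Dust lungs other than WT female dust lung 2 of day 2 lie to the right of all saline lungs, and the 4 lowest points, at 2168 to 3370 for Hpgd, are dust lungs of day 1, 3 WT and 1 Fat-1.

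Dust and saline were next compared within each genotype, to see whether the shift of substrates in Fat-1 mice went with another response. In WT mice Alox5ap went from 388 ± 69.0 normalized counts (SD, n = 5) to 949 ± 311 (n = 7), a log2 rise of 1.24 (limma, SE 0.25, adjusted p = 0.0019). Here 35.3% of tested genes were called, 30.7% higher and 4.64% lower. In Fat-1 mice it went from 439 ± 75.2 (n = 5) to 835 ± 209 (n = 6), a rise of 0.93 (SE 0.26, limma adjusted p = 0.0127), and 38.1% of tested genes were called, 32.2% higher and 5.91% lower.

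Hpgd fell in WT mice from 11417 ± 3058 normalized counts (SD, n = 5) to 5429.5 ± 2619 (n = 7), by 1.25 on the log2 scale (limma, SE 0.33, adjusted p = 0.00875). In Fat-1 mice it went from 10698 ± 1612 (n = 5) to 6101 ± 2151 (n = 6), a log2 difference of -0.95 (limma, SE 0.34, adjusted p = 0.0351). All 6 Fat-1 dust lungs were above all 5 Fat-1 saline lungs for Alox5ap, as for 19.0% of tested genes, and below all of them for Hpgd, as for 4.08%. In WT mice 6 of 7 dust lungs were above the saline lungs for Alox5ap (23.1% of tested genes had at least 6) and 6 of 7 below for Hpgd (3.80%).

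The call on Hpgd in Fat-1 mice was lost in many other settings, with an adjusted p of 0.123 where groups were taken from the characteristics, 0.178 without the 4 lungs whose labels disagree, and 0.0166 to 0.101 when single lungs were left out. Leaving out Fat-1 female dust lung 2 of day 1, which had the lowest Hpgd of the series, gave a log2 difference of -0.65 (adjusted p = 0.0918). In WT mice the call on Hpgd was lost without WT female saline lung 1 of day 1 (-1.01, adjusted p = 0.0725), the saline lung with the most Hpgd. Alox5ap in Fat-1 mice kept its direction but lost its call without the 4 lungs whose labels disagree (1.09, against 0.93 with all lungs). The same held without Fat-1 female saline lung 1 of day 2 (0.78). Each of these fits left 1 Fat-1 female saline lung.

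None of the 3 genes passed the threshold between the genotypes. Among dust lungs Fat-1 minus WT was -0.14 for Alox5ap (SE 0.24, adjusted p = 0.98), 0.27 for Hpgd (SE 0.31, adjusted p = 0.979) and 0.90 for Alox15 (SE 0.39, unadjusted p = 0.032, adjusted p = 0.979) on the log2 scale in limma. Among saline lungs the differences were 0.17, -0.03 and -0.29 for Alox5ap, Hpgd and Alox15. The share of tested genes called was 0% in dust and in saline, where 22 and 10 genes had an unadjusted p under 0.05 in limma, and no other tool was run.

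The test of the genotypes' difference in response to dust gave -0.32 (SE 0.36) for Alox5ap, 0.30 (SE 0.47) for Hpgd and 1.20 (SE 0.59) for Alox15 on the log2 scale, with a limma adjusted p of 0.999 for each. No gene of the panel was called in it, and 21 had an unadjusted p under 0.05. For the response of males minus that of females the values were -0.27, -0.02 and 1.48, again with 0% of tested genes called and 14 at an unadjusted p under 0.05. Alox15 was among these 14 (SE 0.59, limma unadjusted p = 0.0226, adjusted p = 0.998). A missed threshold does not show equal responses, and the standard errors of 0.36 to 0.59 show how wide the estimates are.

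For Alox15, Fat-1 minus WT among dust lungs stayed between 0.63 and 1.07 when single lungs were left out, always short of the threshold. With the common floor of 84.3, above which the lung at 175 is the only dust lung, the difference was 0.17. Among saline lungs it turned from -0.29 to 0.34 without the 2 lungs with the highest Alox15. Taking groups from the characteristics gave a dust response of 1.49 for Alox15 in Fat-1 mice (limma adjusted p = 0.0391), against 0.85 (adjusted p = 0.124) by extract code. Alox5ap and Hpgd were called between the genotypes in dust in a single setting. With array quality weights, whose iterations stopped before they converged, Fat-1 minus WT was -0.54 for Alox5ap (limma adjusted p = 0.0334) and 0.79 for Hpgd (adjusted p = 0.0127), and 13.6% of tested genes were called, 4.36% higher and 9.28% lower.

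**Figure D4:**
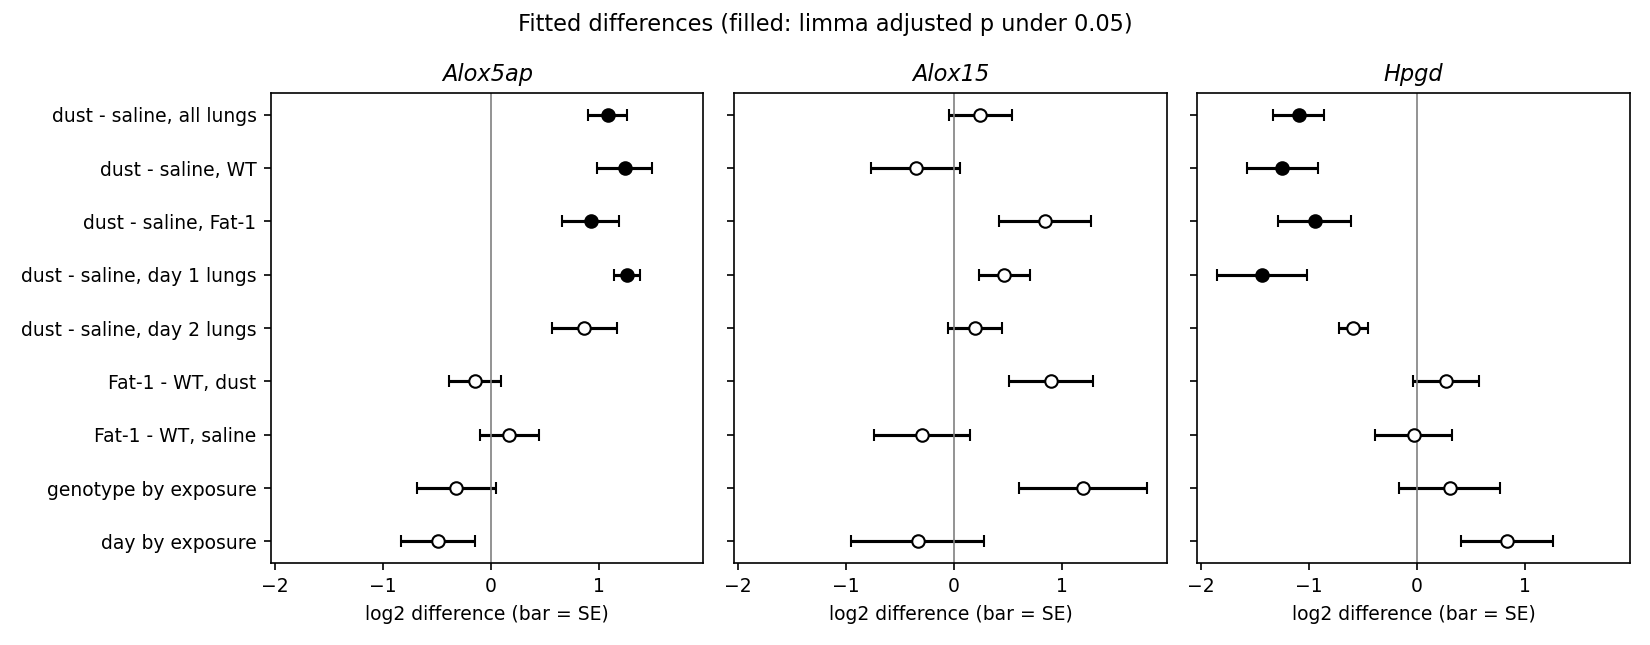
Fitted log2 differences of Alox5ap, Alox15 and Hpgd in 9 comparisons; points are limma estimates, bars the standard error, and filled points have an adjusted p under 0.05. Dust minus saline is above 0 for Alox5ap and below 0 for Hpgd in all lungs, in each genotype and on each day, while the estimates between genotypes lie within 1 standard error of 0 for both and Alox15 has wide bars throughout.

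Values were then set out by extraction day, where dust lungs of day 1 lay farther from saline than those of day 2 for Alox5ap and Hpgd. Day 1 held 8 dust and 4 saline lungs and day 2 held 5 and 6. Alox5ap had a mean of 1005 ± 248 normalized counts in dust on day 1 (SD, n = 8) and 722 ± 203 on day 2 (n = 5), against 409.7 ± 75.4 and 416 ± 78.5 in saline. Hpgd had a mean of 4777 ± 2336 in dust on day 1 and 7279.8 ± 1440.4 on day 2, against 11794 ± 2762 and 10567 ± 2125 in saline.

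On day 1 all 8 dust lungs were above the 4 saline lungs for Alox5ap and below them for Hpgd, as for 26.9% and 5.34% of tested genes. Within day 1 the log2 differences were 1.27 for Alox5ap (limma adjusted p = 6.19e-04) and -1.44 for Hpgd (adjusted p = 0.0341), with 46.6% of tested genes called, 39.5% higher and 7.03% lower. On day 2, 4 of 5 dust lungs were above the saline lungs for Alox5ap and 4 of 5 below for Hpgd. Of tested genes 22.6% had at least 4 dust lungs outside the saline range on 1 side. That share pools above and below, unlike those of day 1, so it is not the share for either direction. Within day 2 the differences were 0.87 (limma adjusted p = 0.129) and -0.59 (adjusted p = 0.0826), with 0.141% of tested genes called, so neither passed the threshold. After median centring the day 2 difference of Hpgd was -0.88 (limma adjusted p = 0.0257).

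The response on day 2 minus that on day 1 was -0.49 for Alox5ap (SE 0.34, adjusted p = 0.427), 0.84 for Hpgd (SE 0.42, adjusted p = 0.301) and -0.34 for Alox15 (SE 0.62, adjusted p = 0.775) in limma, where 0.844% of tested genes were called. The difference between the days in the members' response thus failed the test. Within cartridges 1 and 2, on which the days were nearly divided, Alox5ap was 1.10 and 1.05 higher in dust (limma adjusted p = 0.0705 and 0.0687) and Hpgd differed by -1.0 and -1.18 (adjusted p = 0.19 and 0.0844).

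On day 1 the WT dust lungs had more Alox5ap (1085 to 1219 normalized counts) than 3 of 4 Fat-1 dust lungs (594 to 895), and the fourth had 1187. Fat-1 minus WT among these lungs was -0.52 (limma, SE 0.14, adjusted p = 0.136), with 0% of tested genes called. On day 2 the same difference was 0.35 (adjusted p = 0.764), with 0.422% called. For Hpgd it was 0.56 on day 1 (SE 0.48) and -0.08 on day 2 (SE 0.20). The estimates of both genes differed in sign between days, but those of day 2 lay within 1 SE of 0 (SE 0.44 for Alox5ap). Whether the genotype difference changed with day was not tested. Among saline lungs Fat-1 minus WT was 0.45 for Alox5ap on day 1, with 2 lungs of each genotype, and -0.06 on day 2. The genotypes' difference in response to dust was then -0.97 for Alox5ap on day 1 (SE 0.24) and 0.41 on day 2 (SE 0.60). Neither passed the threshold, and both fits held groups of 1 lung.

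Marker genes of several cell types moved with dust in the same lungs, where 43.3% of all tested genes were called higher and 9.99% lower. The summed normalized counts of 13 monocyte and interstitial macrophage markers ran from 8463 to 11606 in saline and from 9689 to 26959 in dust, with 12 of 13 dust lungs above all saline lungs, and 11 of 13 markers were called higher. Of 11 neutrophil markers on the panel 6 were called higher, the sum ran from 1627 to 3577 in saline and from 1656 to 41634 in dust, and Elane and Cxcr1 were at the floor in every lung. The 7 alveolar macrophage markers summed to 6754 to 20662 in saline and 6279 to 40578 in dust, with 5 called higher. The 7 endothelial markers summed to 9748 to 13178 in saline and 2771 to 10404 in dust, with 12 of 13 dust lungs below all saline lungs and all 7 called lower. After median centring 11 monocyte markers were called higher and 1 lower, and 6 neutrophil markers higher and 2 lower. Of the alveolar macrophage markers 3 were then called higher, and all 7 endothelial markers stayed lower.

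WT female dust lung 2 of day 2, the lung that did not separate for Alox5ap, Hpgd or their ratio, was also the exception for the monocyte and endothelial sums, at 9689 and 10404. The 3 epithelial markers overlapped between the groups, with sums of 7092 to 11588 in saline and 8140 to 12982 in dust, 1 marker called higher and 1 lower. The 5 fibroblast markers summed to 5759 to 10086 in saline and 8387 to 22028 in dust, with 3 called higher. After median centring 3 fibroblast markers were called higher and 2 lower, and 2 epithelial markers lower. The part of these cell types in the shifts of Alox5ap and Hpgd was not tested.

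For Alox15 the markers of cells known to carry it were set beside its values. Both lungs with the highest Alox15 had the highest alveolar macrophage sum of their exposure, 40578 in the dust lung and 20662 in the saline lung, where no other saline lung was above 10340. Of 12 eosinophil and type 2 genes on the panel, Epx and Il5 were at the floor in every lung. Their sum ran from 978 to 1905 in saline and from 1068 to 3076 in dust. Both lungs with the highest Alox15 again had the highest sum of their exposure, although Fat-1 male dust lung 1 of day 1 was close, at 3074. The list holds Ccl24, at 149 in the dust lung, 108 in the saline lung and the floor elsewhere. Without Ccl24, Fat-1 male dust lung 1 of day 1 would have the highest dust sum. Ccr3, Prg2, Il5ra and Il4 were above the floor in only 7, 5, 2 and 3 of 23 lungs. Siglecf is in this list and in that of alveolar macrophages. Of the 10 tested genes 3 were called higher, against 43.3% of all tested genes. The median log2 difference of these 10 was 0.16, below the 0.26 of all genes, and after median centring 0 of them were called higher and 1 lower. Of 8 mast cell and basophil genes, Cpa3, Ms4a2 and Tpsb2 were at the floor in every lung, and the sum ran from 738 to 1323 in saline and from 816 to 1196 in dust. Of the 5 tested, 0 were called higher and 1 lower, against 9.99% of all tested genes lower. After median centring 4 of the 5 were called lower, as were 244 of 711 tested genes. These lists' part in the level of Alox15 was not tested.

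The rest of the eicosanoid pathway was read from lists of 77 genes, of which 18 were on the panel and 17 were tested. None of 11 listed phospholipases and none of 4 desaturase or elongase genes had a probe. Of the 14 tested genes other than Alox5ap, Alox15 and Hpgd, 4 rose with dust and 0 fell, where 43.3% and 9.99% of all tested genes did, and their median log2 difference was 0.10 against 0.26 for all genes. Without 4 lungs in doubt (the 2 with the highest Alox15, the other lung with a too concentrated scan and Fat-1 female dust lung 2 of day 1) 3 of the 14 were called higher. After median centring 2 were called higher and 2 lower, the latter Cbr1 (-0.67) and Lta4h (-0.40).

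The enzymes around Alox5ap did not pass the threshold. Alox5, the 5-lipoxygenase that FLAP serves, had 158 ± 31.6 normalized counts in saline (SD, n = 10) and 193 ± 57.6 in dust (n = 13), a log2 difference of 0.22 (limma adjusted p = 0.302). Lta4h, which makes leukotriene B4, had 552 ± 45.7 and 558 ± 95.0, a difference of -0.01 (adjusted p = 0.974). The rise of Alox5ap was thus larger than the fitted difference of either partner, a contrast between genes that was not itself tested.

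Of the prostanoid enzymes, Ptgs1, the constitutive cyclooxygenase, rose from 766 ± 156 to 1013 ± 139 normalized counts, a log2 difference of 0.39 (limma adjusted p = 0.00217), which was 0.00 after median centring (adjusted p = 0.975). Ptgs2, the inducible cyclooxygenase, was at 201 ± 49.2 in saline and 210.0 ± 59.2 in dust (0.09, limma adjusted p = 0.638). Hpgds and Ptgds, the prostaglandin D synthases, differed by 0.42 and 0.12 and Cbr1, a carbonyl reductase that acts on prostaglandins, by -0.28, with limma adjusted p of 0.177, 0.746 and 0.185. Hpgd, the enzyme of breakdown, was the 1 gene of its list with a probe and the 1 gene of all eicosanoid lists called lower on the deposited scale.

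Among receptors, Ptger2, a prostaglandin E2 receptor, rose from 86.5 ± 29.9 to 164 ± 46.9 normalized counts, a log2 difference of 0.92 (limma adjusted p = 0.00341). Cysltr1, a receptor of cysteinyl leukotrienes, rose from 53.3 ± 14.5 to 80.7 ± 19.6 (0.55, adjusted p = 0.0104), but the difference was 0.16 after median centring (adjusted p = 0.383). Fpr2, a formyl peptide receptor that also binds lipoxin A4, rose from 238 ± 34.6 to 1484 ± 897 (2.47, adjusted p = 5.74e-06). Ltb4r1, Ptgdr and Ptgdr2, receptors of leukotriene B4 and prostaglandin D2, and Pparg, a nuclear receptor for fatty acid derivatives, differed by 0.03, -0.05, -0.04 and 0.06 and did not pass the limma test. Ltb4r2, the second leukotriene B4 receptor, was at the floor in all 23 lungs. None of the 17 genes was called between the genotypes in dust, in saline or in the response to dust.

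**Figure D5:**
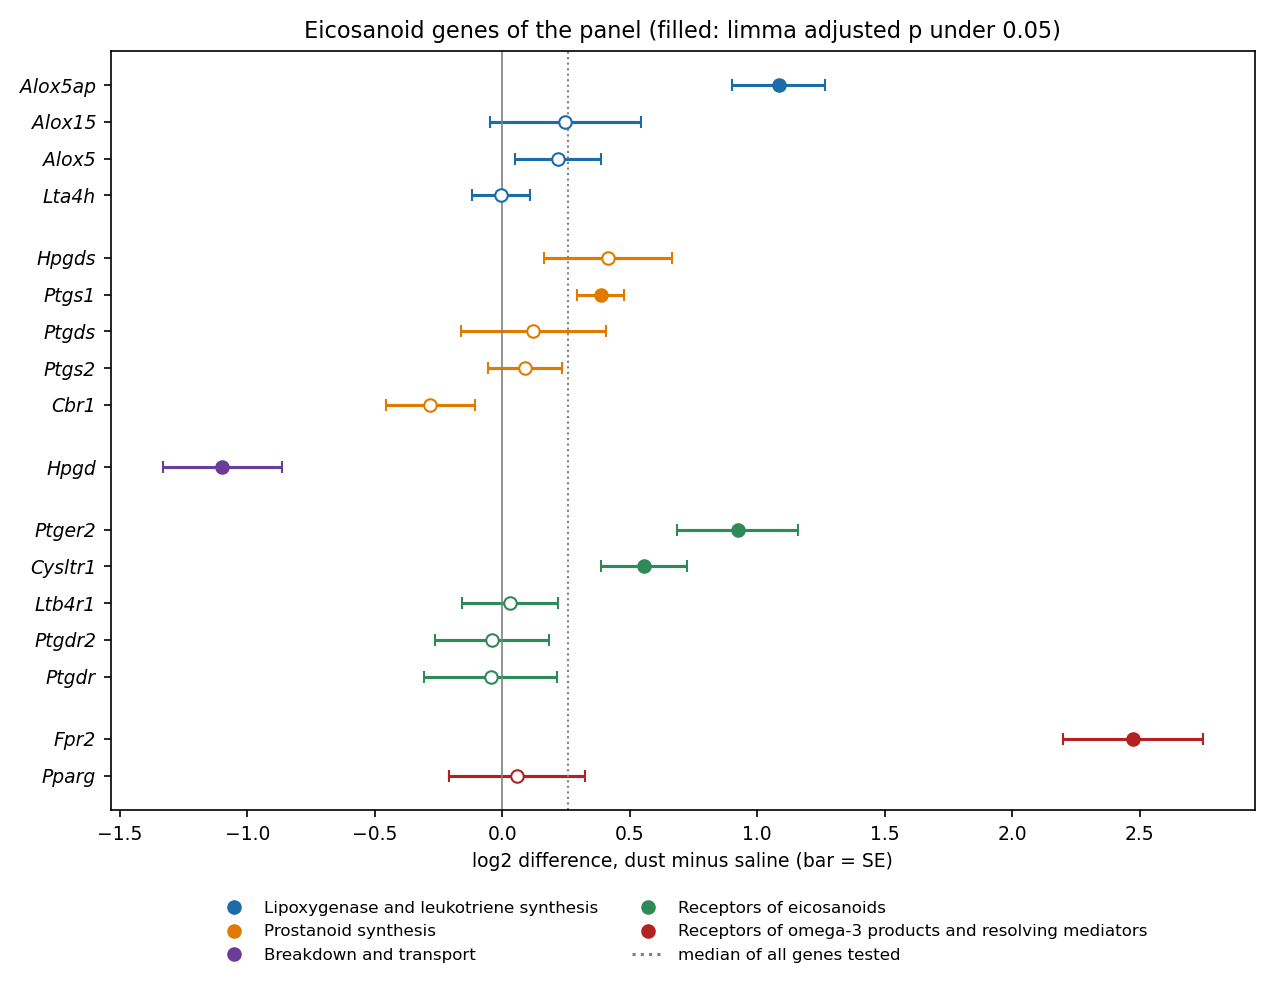
Log2 difference between dust and saline lungs for the 17 tested eicosanoid genes, grouped by role; points are limma estimates, bars the standard error, filled points have an adjusted p under 0.05, and the dotted line is the median of all tested genes at 0.26. Alox5ap at 1.08 and Hpgd at -1.10 lie on opposite sides of it, and Fpr2 at 2.47 is the farthest to the right.

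Genes that varied most like each of the 3 were ranked by Pearson's r over the 23 lungs, using deviations of log2 values from the 8 group means, among the 470 genes above the floor in every lung. The lungs share a scale factor per lung and an extraction day, so these values are descriptions. Among the genes closest to Alox5ap were C1qa and C1qb, chains of complement C1q (r = 0.94 and 0.93), Fcgr3, an IgG receptor (0.93), and Selplg, the P-selectin ligand of leukocytes (0.93). These 4 were called higher in dust, as was Alox5ap. Without the 2 lungs farthest from the median these values were 0.84 to 0.90.

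Closest to Hpgd were Ddr2, a collagen receptor (r = 0.93), Cd36, a fatty acid and scavenger receptor (0.92), Tek, the angiopoietin receptor of endothelium (0.90), Socs2, a suppressor of cytokine signalling (0.90), and Tgfbr3, a co-receptor of the TGF-beta family (0.90). Ddr2, Cd36, Tek and Tgfbr3 were called lower in dust, at -0.46, -0.72, -0.96 and -1.03, and Socs2 was at -0.04. Closest to Alox15 was H2-M3, a nonclassical MHC class I molecule (r = 0.86, and 0.78 without the 2 lungs with the highest Alox15), followed by Hdac3 (0.70), Ccr2 (0.69), Retnla (0.68) and Jak3 (0.66). With 9 of the 23 Alox15 values at the floor, its ranking rests on fewer measured lungs than the others.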

How the data were processed

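Normalized values of 754 genes in 23 lungs were read from the deposited table. They are a signal: probe counts multiplied by a scale factor per lung, per the file headers and the spacing of the values, with counts under 20 set to 20. Where the factor was under 1, scaled values under 20 were at 20 too. The sources used here do not give who computed the factor, or from which genes. It ran from 0.682 to 4.21, and 100.0% of values above the floor were whole steps within a tolerance of 0.1 steps. No count model was fitted, because the floor hides low counts. At 20 counts the counting error alone has an SD of 22.4%.

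Groups came from the extract code. A model of 8 group means over all lungs was fitted to log2(value + 1) in limma (3.58.1, R 4.3.3), and differences are on that scale. Tests were two-sided, adjusted by Benjamini and Hochberg's method over the 711 genes that exceeded the floor anywhere. The day-by-exposure model added extraction day. Tables and plots were made with Python 3.11.15, numpy 2.4.6, pandas 2.3.3 and matplotlib 3.10.9. Fits were tested on simulated data. The members and lists were chosen with earlier results of these data known. Named genes are the members, every eicosanoid-list gene on the panel and the 5 genes most like each member, of which 1 is not reported here. Alternatives were other scalings, floors, filters, pseudocounts, blocks, label sources and left-out lungs; leaving out pairs or 4 lungs in doubt, and day with cartridge as blocks, were chosen after seeing the data. Of the accessions 741 matched RefSeq, including all 3 members.

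Lungs that shared an extraction day and replicate number had residuals with a median correlation of -0.01 and a lowest of -0.45, so the numbers were not taken to pair lungs.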

Additional observations from a re-analysis of the deposited data

Results flagged for a closer look

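In groups of 4 to 10 lungs, 6 of 24 sets of values had a highest or lowest lung farther from its neighbour than the 95% limit of Dixon's test, of which chance gives about 1 in 20 where values are measured and not tied. Of the 6, 5 are of Alox15, whose sets hold lungs set to the floor, so that rate does not hold for them, and the sets by genotype and by day share lungs. For Alox15, Fat-1 male dust lung 1 of day 2 stood out at 175 normalized counts both among Fat-1 dust lungs (the next at 62.0) and among dust lungs of day 2 (the next at 38.4). For Alox15 WT female saline lung 1 of day 2 stood out at 121, both among WT saline lungs and among saline lungs of day 2 (the next at 35.7 in each). Among saline lungs of day 1, Alox15 was measured in Fat-1 female saline lung 1 alone, at 55.9, with the other 3 lungs at the floor, whose lowest measurable values reached 84.3, so it need not be the highest. For Alox5ap, WT male saline lung 1 of day 2, whose scan was too concentrated, stood out among WT saline lungs at 508, with the next at 382, but within the range of the Fat-1 saline lungs.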

How the results depend on the processing

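The differences between dust and saline over all lungs were called for Alox5ap (0.69 to 1.20) and Hpgd (-1.49 to -0.77) under all 16 alternatives run, and without any single lung (1.01 to 1.18 and -1.22 to -0.95); the number of genes called was 269 to 453, and 336 to 402 without single lungs. With median centring, 202 genes were called higher and 244 lower, against 308 and 71. Median centring turned Alox15 to -0.14 over all lungs, -0.013 within day 1 and -0.092 within day 2, and called Hpgd (-0.88) and 144 genes within day 2. The blocked fit, with replicate number within extraction day as the replicate block, gave 0.91 for Alox5ap (limma adjusted p = 8.63e-04) and -0.77 for Hpgd (0.00527) over all lungs, and -0.59 for Hpgd in Fat-1 mice (0.12), where 160 genes were called. It changed no other call among the members.

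In WT mice 139 genes were called without the lungs whose labels disagree and 388 with array weights, against 251, and Alox15 turned to 0.28 without its 2 highest lungs and 0.22 without 4 lungs in doubt. In Fat-1 mice the 271 called genes became 167 with groups from the characteristics, 69 without the lungs whose labels disagree and 122 without 4 lungs in doubt. There Hpgd lost its call with day as a block (-0.86), groups from the characteristics (-0.94), without the lungs whose labels disagree (-0.94), without the 2 highest Alox15 lungs (-0.97), without the 2 too concentrated lungs (-0.97) and without 4 lungs in doubt (-0.68). Alox5ap lost its own at 1.09 and 0.75, without the lungs whose labels disagree and without the 4 in doubt, and Alox15 gained one at 1.49 with the characteristics.

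Between genotypes, array weights called 97 genes in dust (31 higher, 66 lower), with Alox5ap at -0.54 and Hpgd at 0.79, and leaving out 4 lungs in doubt called 15 in saline. With the characteristics Alox5ap turned to 0.010 in dust and 0.0089 in the genotype-by-exposure test. In saline Hpgd turned to 0.018 with array weights, 0.041 without the too concentrated lungs and 0.049 with day and cartridge as blocks, and Alox15 to 0.34 and 0.27 without its highest lungs and without 4 in doubt. For sex by exposure, Hpgd turned to 0.062, 0.086, 0.13, 0.19, 0.022 and 0.19 with day, the replicate block, the characteristics, without the highest Alox15 lungs, without the too concentrated lungs and with day and cartridge, and 3 genes were called without 4 lungs in doubt.

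For day by exposure the 6 called genes became 3 with a pseudocount of 20, no filter, the cartridge, or day and cartridge; 0 with genes above the floor in all lungs or a common floor, which turned Alox15 to 0.12; 15 with housekeeping scaling or median centring; 153 with array weights; 158 without either pair of lungs; and 167 without 4 in doubt. Without single lungs the ranges were 117 to 307 genes in WT, 164 to 336 in Fat-1, 0 to 5, 0 to 2, 0 to 1 and 0 to 1 for genotype in dust, genotype in saline, genotype by exposure and sex by exposure, and 2 to 185 for day by exposure, the last without Fat-1 male dust lung 1 of day 2. They were -1.49 to -1.01 and -1.15 to -0.65 for Hpgd in WT and Fat-1 mice, 0.78 to 1.07 for Alox5ap in Fat-1 mice, -0.070 to 0.56 and -0.99 to 0.28 for Alox15 over all lungs and in WT mice, -0.93 to 0.34 for Alox15 and -0.27 to 0.21 for Hpgd between genotypes in saline, -0.32 to 0.21 for Hpgd in sex by exposure and -0.85 to 0.23 for Alox15 in day by exposure. Apart from fewer lungs or genes, the cause was not tested. Depth limits Alox15 most, since 9 lungs lack a measured value.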

Other observations

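Of 711 tested genes, 4 had both their highest values in the 2 lungs with the highest Alox15, with each lung at the floor taken at its upper bound; they were chosen after the values were seen and given with no test. Apart from Alox15 these were Ccl24, Retnla and Rgl1. Ccl24, an eosinophil chemokine, was at 149 normalized counts in Fat-1 male dust lung 1 of day 2 and 108 in WT female saline lung 1 of day 2, and at the floor in the other 21 lungs, each of which would have shown a value above 84.3. Retnla, a secreted protein of alternatively activated macrophages, was at 34572 and 39489.6 in these lungs and at most at 22428 elsewhere. Rgl1 was at 330.1 and 338 against at most 252. The 2 lungs differ in genotype, sex and exposure and share extraction day 2 and cartridge 1. Their scale factors were 0.988 and 0.888, in a series that ran from 0.682 to 4.21, so fewer normalized counts were needed to clear the floor than in most lungs.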
